A study of Homo sapiens with 14 samples.

Results

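Desmosome genes were followed in KYSE510, a human esophageal squamous cell carcinoma line, by RNA sequencing 48 h after transfection of small interfering RNA (siRNA). The members are PERP, the desmogleins DSG2 and DSG3, the desmocollins DSC2 and DSC3, JUP (plakoglobin), the plakophilins PKP1, PKP2 and PKP3, and DSP (desmoplakin). They were chosen by gene name, and all 10 were found among the 63677 genes of each table and passed the filter of a mean of at least 1 FPKM (reads or fragments counted, per length of gene and depth of library) in both. JUP was also listed under a second gene ID, which stood at 0 in all 12 libraries and was left out.

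The libraries formed 2 series, each with its own negative control siRNA (siNC). The EZH2 series held siEZH2-1, siEZH2-2 and siNC, and the LAT1 series held siLAT1-2, siLAT1-3 and another siNC, with 2 libraries in each of the 6 groups. The labels call the siRNAs of a pair independent and give 1 cell line for all groups. EZH2 is the histone H3 lysine methyltransferase of Polycomb repressive complex 2. LAT1, the product of SLC7A5, imports large neutral amino acids.

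Desmosomes are junctions that tie the keratin filaments of neighbouring epithelial cells together. Desmogleins and desmocollins are the adhesive cadherins that meet between the cells, JUP and the plakophilins bind their tails in a plaque under the membrane, and desmoplakin links that plaque to keratin. PERP is a tetraspan membrane protein of the claudin and PMP22 superfamily, a transcriptional target of p63 that is needed for desmosomes in stratified epithelia such as the lining of the esophagus.

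The targets checked the labels. EZH2 averaged 6.94 ± 0.431 FPKM with siEZH2-1 and 6.22 ± 0.255 with siEZH2-2, against 17.1 ± 0.0354 with siNC (SD, n = 2 each here and throughout). SLC7A5 averaged 83.3 ± 4.16 FPKM with siLAT1-2 and 107 ± 0.318 with siLAT1-3, against 410 ± 4.39 with siNC. SLC7A5 was also lower in the EZH2 series, at 188 FPKM with siEZH2-1 and 593 with siEZH2-2, against 755 with siNC. The libraries of the 2 series stood apart although the labels give the same line. At siNC, CLDN1 averaged 11.7 FPKM in the LAT1 series, against 0.015 in the EZH2 series, and CDH2 averaged 9.61 FPKM in the LAT1 series, against 0.01. Of 63677 genes, 80 had at least 5 FPKM in all 6 LAT1 series libraries and under 0.1 FPKM in all 6 EZH2 series libraries, and 0 genes had the reverse. What this gap comes from was not tested, and each test and log2 change below is therefore within 1 series. Where the series are set side by side, as in the siNC levels of PERP and the ranking of its nearest genes, this is description only. EZH2 stayed between 16.2 and 18.4 FPKM in the 6 libraries of the LAT1 series. The estimated depth of a library was 21320000 to 27220000 with the EZH2 siRNAs and their siNC, and 12880000 to 16720000 with the LAT1 siRNAs and their siNC. All 8 squamous markers averaged at least 1 FPKM in both series, with KRT5 highest at 490 and 468 FPKM. Of 7 fibroblast markers, only COL1A1 reached a mean of 1 FPKM in each series, at 1.23 and 2.00 FPKM, and the summed fibroblast level was at most 2.56 FPKM in any library. None of 6 immune or 4 melanocyte markers reached it, and of 4 endothelial markers only CDH5 did, at 1.02 FPKM in the LAT1 series.

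PERP was higher with all 4 siRNAs than with the siNC of its series, and 1 siRNA of the EZH2 pair moved it far less than the other. It had 85.0 and 78.2 FPKM with siEZH2-1 and 36.0 and 35.2 FPKM with siEZH2-2, against 29.9 and 28.6 FPKM with siNC. No library of either siRNA overlapped siNC. In these bulk libraries, a change in the number of cells that express a gene and a change in RNA per cell cannot be told apart. With siEZH2-1 the mean was 279% of siNC, and with siEZH2-2 it was 122%. Its levels in the LAT1 series were 115 and 113 FPKM with siLAT1-2 and 113 and 108 FPKM with siLAT1-3, against 62.5 and 59.3 FPKM with siNC. There the siRNAs gave close values, at 188% of siNC with siLAT1-2 and 181% with siLAT1-3. The tables were normalized separately, so the gap between the siNC levels, 29.2 FPKM beside the EZH2 siRNAs and 60.9 FPKM beside the LAT1 siRNAs, is only described. PKP1 differed the other way, with 7.80 FPKM at siNC of the LAT1 series and 31.6 FPKM at siNC of the EZH2 series.

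In limma on log2(FPKM + 1), a scale that understates changes of low genes, PERP rose by 1.45 with siEZH2-1 (95% interval 1.31 to 1.59, adjusted p = 9.77e-05) and by 0.28 with siEZH2-2 (0.13 to 0.42, adjusted p = 0.0186). The siEZH2-2 minus siEZH2-1 difference was -1.17 (-1.32 to -1.03, adjusted p = 0.000178 in limma). With siLAT1-2 it rose by 0.90 (0.81 to 0.99, adjusted p = 1.87e-05 in limma) and with siLAT1-3 by 0.85 (0.76 to 0.93, adjusted p = 2.39e-05). The difference of siLAT1-3 minus siLAT1-2 was -0.05 (-0.14 to 0.04, adjusted p = 0.349 in limma). The siEZH2-2 call was lost without the low-value filter (adjusted p = 0.0672) and without either siEZH2-2 or either siNC library, with adjusted p of 0.0258 to 0.0941 over the 6 refits that leave 1 library out. Averaged over the EZH2 pair the rise was 0.86 (0.74 to 0.99, adjusted p = 0.000228 in limma), and that call was lost when both siRNAs were treated as 1 group of 4 libraries (adjusted p = 0.201, against 7.04e-05 to 0.201 over 12 alternatives), a fit in which the gap between the siRNAs counts as spread.

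**Figure D1:**
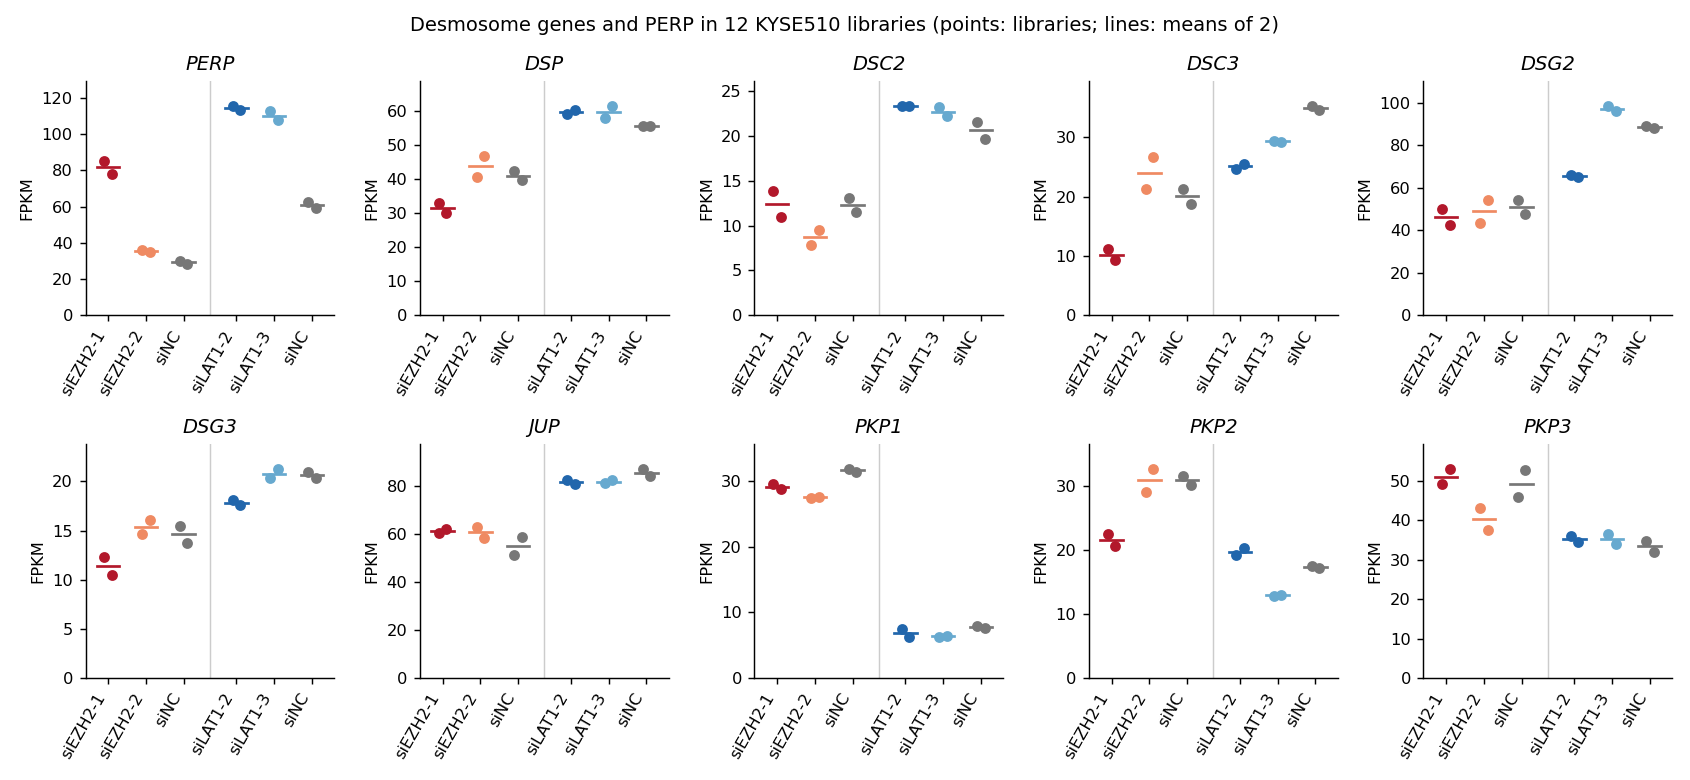
FPKM of each of the 10 members in each library, on a linear axis from 0 with its own range per gene, the siRNA groups left of siNC in each series; points are libraries and lines are means of 2. PERP lies at 78.2 to 85.0 FPKM with siEZH2-1 and at 108 to 115 FPKM with both LAT1 siRNAs, above all siNC libraries of its series.

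Among the members, PERP had the highest mean FPKM with siEZH2-1 and with both LAT1 siRNAs, rank 5 of 10 with siEZH2-2, and ranks 7 and 3 with siNC of the EZH2 and LAT1 series. With siNC of the EZH2 series the order of mean FPKM ran JUP, DSG2, PKP3, DSP, PKP1, PKP2, PERP, DSC3, DSG3, DSC2. In that order the libraries overlapped between JUP and DSG2, DSG2 and PKP3, and PKP1 and PKP2. With siNC of the LAT1 series it ran DSG2, JUP, PERP, DSP, DSC3, PKP3, DSG3, DSC2, PKP2, PKP1, with overlap between DSC3 and PKP3 and between DSG3 and DSC2.

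DSC3, a desmocollin of the deeper layers of stratified epithelium, fell with 3 of the 4 siRNAs. It had 11.2 and 9.27 FPKM with siEZH2-1 and 21.3 and 26.7 FPKM with siEZH2-2, against 21.4 and 18.8 FPKM with siNC. Only siEZH2-1 was apart from siNC there, at 51.1% of it, since the libraries of siEZH2-2 and siNC overlapped. DSC3 in the LAT1 series had 24.7 and 25.6 FPKM with siLAT1-2 and 29.4 and 29.3 FPKM with siLAT1-3, against 35.3 and 34.7 FPKM with siNC. All 4 siRNA libraries lay under both siNC libraries, at 71.8% of siNC with siLAT1-2 and 83.8% with siLAT1-3.

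In limma DSC3 fell by 0.91 with siEZH2-1 (-1.22 to -0.59, adjusted p = 0.00445). With siEZH2-2 its log2 change was 0.24 (-0.07 to 0.56, adjusted p = 0.227 in limma), and siEZH2-2 exceeded siEZH2-1 by 1.15 (0.83 to 1.46, adjusted p = 0.0028). It fell by 0.46 with siLAT1-2 (adjusted p = 0.000115 in limma) and by 0.25 with siLAT1-3 (adjusted p = 0.00188), and siLAT1-3 exceeded siLAT1-2 by 0.22 (0.14 to 0.29, adjusted p = 0.00394). These calls were kept without any 1 library. Averaged over the EZH2 pair the change of DSC3 was -0.33 (adjusted p = 0.0685 in limma), and averaged over the LAT1 pair it was -0.35 (-0.42 to -0.29, adjusted p = 0.00019).

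DSC2, the desmocollin found more widely in epithelia, did not follow DSC3. It averaged 12.4 ± 2.06 FPKM with siEZH2-1 and 8.68 ± 1.19 with siEZH2-2, against 12.3 ± 1.06 with siNC. It fell by 0.46 with siEZH2-2 in limma (-0.77 to -0.14, adjusted p = 0.0473), a call lost without the low-value filter (adjusted p = 0.199) and without siEZH2-2 replicate 1, siNC replicate 1 or siNC replicate 2, with adjusted p up to 0.193. DSC2 in the LAT1 series averaged 23.3 ± 0.0212 FPKM with siLAT1-2 and 22.7 ± 0.707 with siLAT1-3, against 20.6 ± 1.37 with siNC. Over the LAT1 pair it rose by 0.15 (adjusted p = 0.0337 in limma). That call was lost under quantile normalization, without the filter and with the pair as 1 group. It was also lost without either siLAT1-2 library, siLAT1-3 replicate 1 or siNC replicate 2. With 1 library left out, DSC2 rose by 0.09 to 0.22 over the pair. It rose by 0.17 with siLAT1-2 in limma (adjusted p = 0.0391), a call lost under quantile normalization, without the filter and without any 1 of 4 libraries (both of siLAT1-2, siLAT1-3 replicate 1 and siNC replicate 2), with adjusted p up to 0.173, and its change with siLAT1-3 was 0.13 (adjusted p = 0.0843).

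Taken as a share of the summed FPKM of DSC2 and DSC3, DSC2 made up 54.7% ± 0.804 with siEZH2-1 and 26.6% ± 0.444 with siEZH2-2, against 38.0% ± 0.114 with siNC. The EZH2 siRNAs thus stood on opposite sides of siNC in the makeup of the pair. The share of DSC2 in the LAT1 series was 48.1% ± 0.617 with siLAT1-2 and 43.6% ± 0.731 with siLAT1-3, against 37.0% ± 1.27 with siNC. The shares were described and not tested. The summed level of the pair was 22.6 ± 3.44 FPKM with siEZH2-1 and 32.7 ± 5.01 with siEZH2-2, against 32.3 ± 2.89 with siNC.

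**Figure D2:**
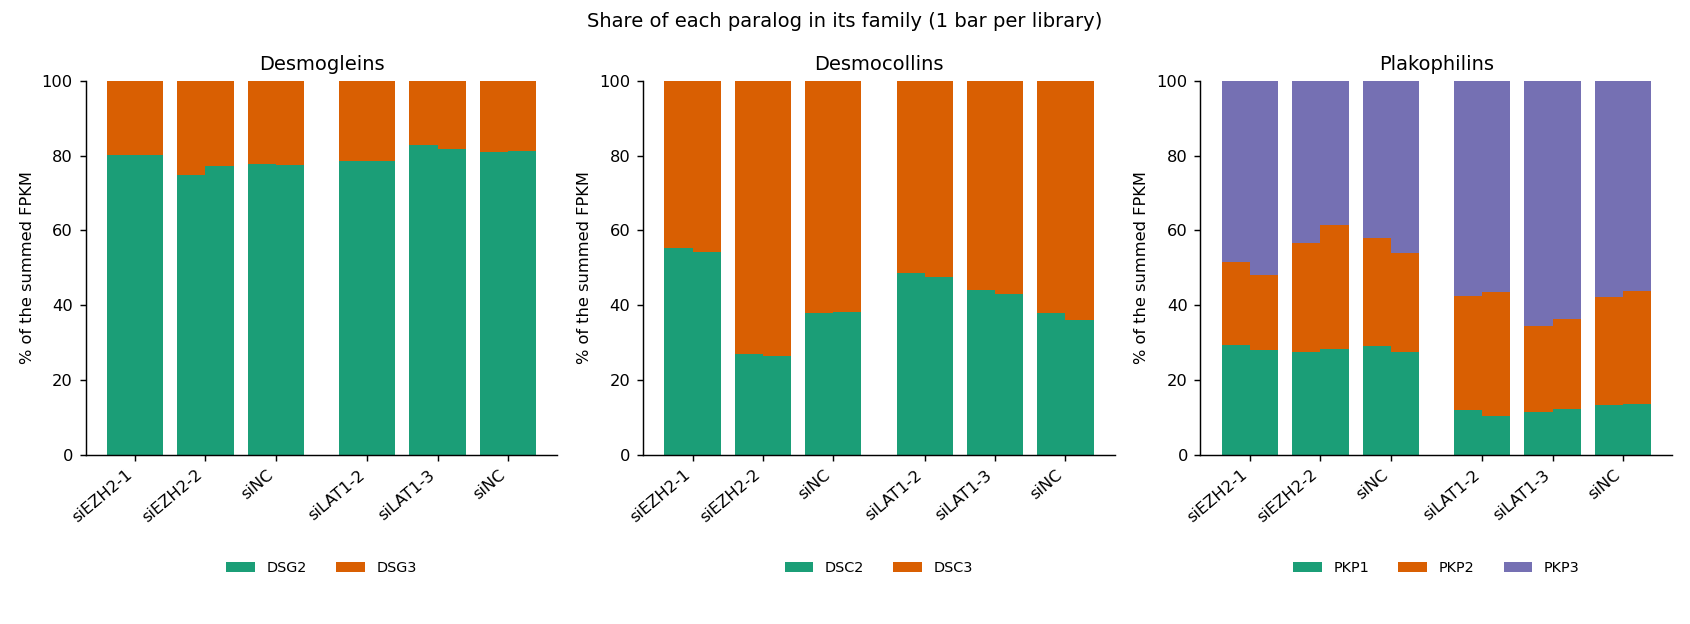
Share of each desmoglein, desmocollin and plakophilin in the summed FPKM of its family (percent), 1 stacked bar per library, the siRNA groups left of siNC in each series. DSC2 makes up on average 54.7% of the desmocollins with siEZH2-1 and 26.6% with siEZH2-2, against 38.0% with siNC.

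Of the desmogleins, DSG2, the form of simple and basal epithelium, moved in opposite directions with the LAT1 siRNAs. It had 66.1 and 64.9 FPKM with siLAT1-2 and 98.4 and 96.0 FPKM with siLAT1-3, against 89.1 and 88.2 FPKM with siNC. The siLAT1-2 libraries lay under both siNC libraries and the siLAT1-3 libraries over both. DSG2 fell by 0.43 with siLAT1-2 in limma (-0.50 to -0.37, adjusted p = 8.4e-05) and rose by 0.13 with siLAT1-3 (0.07 to 0.20, adjusted p = 0.0124), and siLAT1-3 minus siLAT1-2 was 0.56 (0.50 to 0.63, adjusted p = 4.09e-05). The call with siLAT1-3 was lost without siLAT1-3 replicate 1 or either siNC library, with adjusted p up to 0.0761. The mean over the pair, -0.15 (adjusted p = 0.00359 in limma), lost its call with the pair as 1 group (adjusted p = 0.662, the highest over 12 alternatives, of which the lowest was 0.0014). In the EZH2 series DSG2 averaged 46.3 ± 5.13 FPKM with siEZH2-1 and 48.9 ± 7.73 with siEZH2-2, against 51.0 ± 4.79 with siNC, and neither siRNA passed the test.

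DSG3, the desmoglein of the deeper layers of stratified epithelium and the main antigen of pemphigus vulgaris, was lower with 1 siRNA of each pair. It had 12.3 and 10.5 FPKM with siEZH2-1 and 14.7 and 16.1 FPKM with siEZH2-2, against 15.5 and 13.8 FPKM with siNC. Its values in the LAT1 series were 18.1 and 17.6 FPKM with siLAT1-2 and 20.3 and 21.3 FPKM with siLAT1-3, against 21.0 and 20.4 FPKM with siNC. Libraries of siEZH2-1 and siLAT1-2 lay under siNC, and those of siEZH2-2 and siLAT1-3 overlapped it. DSG3 fell by 0.34 with siEZH2-1 in limma (-0.57 to -0.10, adjusted p = 0.0446), a call lost without the filter (adjusted p = 0.169) and without siEZH2-1 replicate 2, siEZH2-2 replicate 2 or either siNC library, with adjusted p up to 0.224. It fell by 0.20 with siLAT1-2 (adjusted p = 0.0081 in limma), a call lost without siNC replicate 1 (adjusted p = 0.0568, the highest over 11 alternatives, of which the lowest was 0.00414).

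The desmogleins and desmocollins lie side by side on chromosome 18, in the RefSeq order DSC3, DSC2, DSC1, DSG1, DSG4, DSG3, DSG2. DSC1, DSG1 and DSG4, cadherins of the upper epidermal layers and of hair, averaged at most 0.075 FPKM in any group, as did the cornified-layer protein corneodesmosin (CDSN). Of the cluster, DSC3 at one end and DSG3 and DSG2 near the other fell with siLAT1-2, while DSC2, next to DSC3, did not.

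The windows around the start sites of 3 members are shown for PERP, the member that rose with all 4 siRNAs, for DSC3, which fell with 3 of them, and for DSG3, its fellow cadherin of stratified epithelium. They are RefSeq windows of GRCh38.p14, 250 bases before to 50 after the start, at chr6:138107370-138107669 (minus strand), chr18:31042693-31042992 (minus strand) and chr18:31447491-31447790 (plus strand). Each is written 5′ to 3′ on the strand of its gene. Capitals mark an AP-1 motif in PERP and a decamer shared by p63 and its relatives in DSC3 and DSG3. These are also the only member windows that hold either motif, and the PERP window has no match to the decamer.
PERP: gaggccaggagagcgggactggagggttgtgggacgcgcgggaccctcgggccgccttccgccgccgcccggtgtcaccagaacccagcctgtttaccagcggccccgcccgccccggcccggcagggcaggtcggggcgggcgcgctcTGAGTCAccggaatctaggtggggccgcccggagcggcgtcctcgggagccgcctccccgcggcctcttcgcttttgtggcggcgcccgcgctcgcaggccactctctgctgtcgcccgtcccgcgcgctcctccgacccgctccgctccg
DSC3: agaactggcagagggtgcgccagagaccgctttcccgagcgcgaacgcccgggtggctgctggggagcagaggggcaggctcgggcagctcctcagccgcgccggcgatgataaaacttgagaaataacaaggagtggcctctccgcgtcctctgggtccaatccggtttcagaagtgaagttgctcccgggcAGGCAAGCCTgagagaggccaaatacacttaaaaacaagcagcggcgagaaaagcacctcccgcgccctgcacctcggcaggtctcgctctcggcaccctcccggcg
DSG3: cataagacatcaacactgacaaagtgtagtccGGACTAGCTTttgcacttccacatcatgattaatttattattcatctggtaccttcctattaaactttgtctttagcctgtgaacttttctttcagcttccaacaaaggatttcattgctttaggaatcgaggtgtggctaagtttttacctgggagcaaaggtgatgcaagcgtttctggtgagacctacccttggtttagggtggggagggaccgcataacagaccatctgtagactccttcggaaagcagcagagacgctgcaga
The capitals start at base 150 of the PERP window, base 194 of the DSC3 window and base 33 of the DSG3 window. These windows differed widely in composition. PERP had 77.0% G and C with 43 CpG, DSC3 had 63.3% with 25, and DSG3 had 44.0% with 6, against medians of 58.7% and 14 over all windows.

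Of the 10 members, 8 had a window and these had 10 windows in all, searched on both strands. TGANTCA, the AP-1 motif, was in 1 of the 10 member windows and in 7.71% of 35116 windows. The decamer shared by p63 and its relatives, RRRCWWGYYY, was in 2 of 10 and in 6.63% of all. In it R is A or G, W is A or T, and Y is C or T. GGGCGG, the GC box, was in 7 of 10 and in 45.0% of all, with 5 matches in PERP, some of which overlap. AACNGGTT, bound by grainyhead-like factors, was in 0 of 10 and in 1.73% of all, and TATAAA was in 0 of 10 and in 11.5% of all. These matches describe letters in a window and not binding sites.

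Among the plaque proteins, JUP (plakoglobin), which binds the tails of both kinds of cadherin, did not pass the test in any comparison. It lay between 58.6 and 63.1 FPKM over the 4 siRNA libraries of the EZH2 series, against 51.4 and 58.9 FPKM with siNC. In the LAT1 series it lay between 80.9 and 82.8 FPKM over the 4 siRNA libraries, against 87.4 and 84.2 FPKM with siNC. All 4 LAT1 siRNA libraries were under siNC, but the mean change was -0.07 with an adjusted p of 0.0993 in limma.

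PKP2, the plakophilin of the widest tissue range and the one of heart muscle, fell with 1 EZH2 siRNA and moved in opposite directions with the LAT1 siRNAs. It had 22.6 and 20.6 FPKM with siEZH2-1 and 29.1 and 32.6 FPKM with siEZH2-2, against 31.6 and 30.2 FPKM with siNC. Its LAT1 series values were 19.2 and 20.3 FPKM with siLAT1-2 and 12.9 and 13.0 FPKM with siLAT1-3, against 17.5 and 17.1 FPKM with siNC. The siLAT1-2 libraries lay over siNC and the siLAT1-3 libraries under it. PKP2 fell by 0.50 with siEZH2-1 in limma (-0.68 to -0.32, adjusted p = 0.0056), and the log2 change with siEZH2-2 was -0.00 (adjusted p = 0.983). It rose by 0.18 with siLAT1-2 (adjusted p = 0.015 in limma) and fell by 0.40 with siLAT1-3 (-0.49 to -0.30, adjusted p = 0.000621), and siLAT1-3 minus siLAT1-2 was -0.58 (-0.67 to -0.48, adjusted p = 0.000158). The falls with siEZH2-1 and siLAT1-3 were kept without any 1 library, while the rise with siLAT1-2 was lost without siLAT1-2 replicate 2 or either siNC library, with adjusted p up to 0.0846. Averaged over the EZH2 pair the change was -0.25 (adjusted p = 0.0319 in limma), a call lost without the filter, with the pair as 1 group and without siEZH2-1 replicate 2, siEZH2-2 replicate 1 or either siNC library, with adjusted p up to 0.397.

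PKP1, the plakophilin of stratified epithelium, showed only small differences. It averaged 29.1 ± 0.587 FPKM with siEZH2-1 and 27.5 ± 0.0424 with siEZH2-2, against 31.6 ± 0.318 with siNC, and 6.86 ± 0.87 FPKM with siLAT1-2 and 6.39 ± 0.113 with siLAT1-3, against 7.80 ± 0.184 with siNC. All siRNA libraries lay under siNC in both series. It fell by 0.20 with siEZH2-2 (adjusted p = 0.0306 in limma), by 0.16 over the EZH2 pair (adjusted p = 0.0358), by 0.25 with siLAT1-3 (adjusted p = 0.0471) and by 0.21 over the LAT1 pair (adjusted p = 0.0496). With 1 library left out, the first 2 of these calls were lost in 6 of 6 refits (adjusted p of 0.0631 to 0.205), the siLAT1-3 call in 4 (without either siLAT1-3 or either siNC library) and the last in 5 (all but siLAT1-2 replicate 1), with adjusted p up to 0.223. Both averages over a pair were also lost with the pair as 1 group (adjusted p = 0.145 and 0.141), and both LAT1 calls without the filter.

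PKP3, a plakophilin of both simple and stratified epithelia, averaged 51.0 ± 2.75 FPKM with siEZH2-1 and 40.4 ± 3.97 with siEZH2-2, against 49.2 ± 4.76 with siNC, and between 31.9 and 36.5 FPKM in the 6 libraries of the LAT1 series. It passed no test. Its log2 change with siEZH2-2 was -0.28 (adjusted p = 0.0747 in limma). PKP3 was the most abundant plakophilin by FPKM in all 6 groups, at 50.2% of the family with siEZH2-1 and 40.9% with siEZH2-2, against 44.0% with siNC. Its share in the LAT1 series was 57.0% with siLAT1-2 and 64.6% with siLAT1-3, against 57.0% with siNC.

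DSP, the plakin that anchors keratin, had 33.1 and 30.1 FPKM with siEZH2-1 and 40.6 and 46.9 FPKM with siEZH2-2, against 42.5 and 39.7 FPKM with siNC. Its siEZH2-1 libraries lay under siNC, and its siEZH2-2 libraries overlapped siNC. DSP fell by 0.37 with siEZH2-1 in limma (-0.58 to -0.16, adjusted p = 0.023), a call lost without the filter (adjusted p = 0.111) and without siEZH2-1 replicate 2 or siNC replicate 1, with adjusted p up to 0.131. In the LAT1 series it averaged 59.8 ± 0.792 FPKM with siLAT1-2 and 59.8 ± 2.37 with siLAT1-3, against 55.7 ± 0.0636 with siNC. Over the LAT1 pair it rose by 0.10 (adjusted p = 0.0383 in limma), a call lost under quantile normalization, without the filter, with the pair as 1 group and without any 1 of 5 libraries (all but siLAT1-3 replicate 1), with adjusted p up to 0.166.

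**Figure D3:**
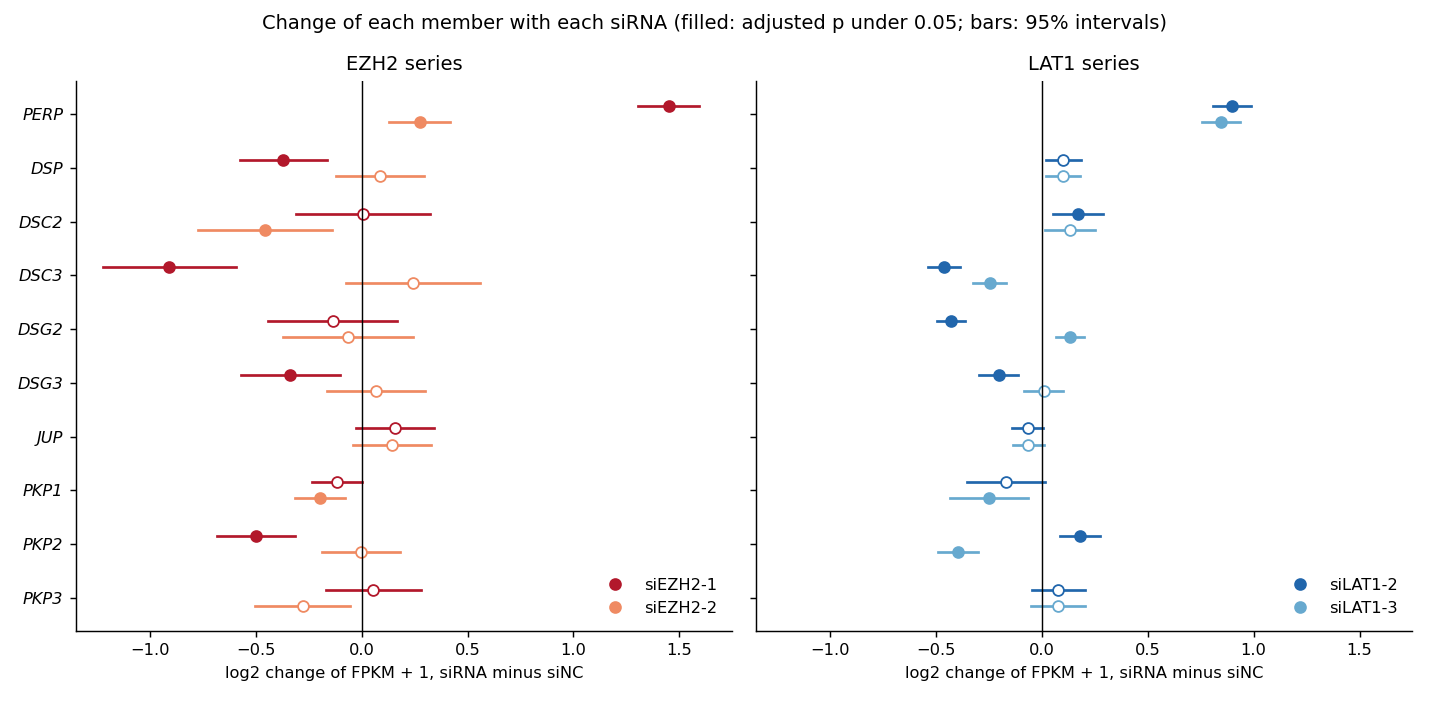
limma log2 change of each member against siNC of its series, on log2(FPKM + 1), for each siRNA, with 95% intervals; filled points passed an adjusted p under 0.05. PERP lies at 1.45 and 0.28 with siEZH2-1 and siEZH2-2 and at 0.90 and 0.85 with siLAT1-2 and siLAT1-3, and DSC3 at -0.91, 0.24, -0.46 and -0.25.

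The members were counted beside the share of all tested genes that passed. With siEZH2-1, 1 member rose and 4 fell, where 27.2% of all 11585 genes tested were called, 15.9% higher and 11.4% lower. With siEZH2-2, 1 rose and 2 fell, where 24.8% of genes were called, 13.9% higher and 10.9% lower. Over the EZH2 pair 1 rose (PERP) and 2 fell (PKP1 and PKP2), where 30.0% of genes were called, 17.0% higher and 13.0% lower, a share equal to that of the members. The median log2 change of the members over that pair was -0.14, against 0.03 over all genes.

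Among the LAT1 comparisons, 3 members rose and 3 fell with siLAT1-2, where 32.5% of all 11678 genes tested were called, 18.6% higher and 13.9% lower. With siLAT1-3, 2 rose and 3 fell, where 31.4% of genes were called, 17.9% higher and 13.6% lower. Over the LAT1 pair 3 rose (PERP, DSC2 and DSP) and 3 fell (DSC3, DSG2 and PKP1), where 34.5% of genes were called, 19.3% higher and 15.3% lower. The median over that pair was -0.08 for the members and 0.01 for all genes. PERP was the one member above an absolute log2 change of 0.5 over either pair.

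The siRNAs of 1 target differed from each other at several members. Between siEZH2-2 and siEZH2-1, 4 members were higher (DSC3, PKP2, DSP and DSG3) and 1 was lower (PERP), where 16.3% of genes were called, 7.40% higher and 8.86% lower. Between siLAT1-3 and siLAT1-2, 3 members were higher (DSG2, DSC3 and DSG3) and 1 was lower (PKP2), where 25.5% of genes were called, 12.4% higher and 13.1% lower. EZH2 itself differed by -0.14 between siEZH2-2 and siEZH2-1 (adjusted p = 0.223 in limma), and SLC7A5 by 1.65 (adjusted p = 8.66e-05). Between siLAT1-3 and siLAT1-2, SLC7A5 differed by 0.36 (adjusted p = 0.000803 in limma). Whether these levels have a part in the members' differences was not tested.

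Of 8 other desmosome proteins, 4 were tested in each series, and in each series 1 rose and 1 fell over the pair. Both are plakins of the cornified envelope and desmosome. Envoplakin (EVPL) averaged 9.06 FPKM with siEZH2-1 and 8.20 with siEZH2-2, against 6.35 with siNC, and 6.37 FPKM with siLAT1-2 and 6.16 with siLAT1-3, against 4.32 with siNC. It rose by 0.39 over the EZH2 pair (adjusted p = 0.0115 in limma, lost without siNC replicate 1 and without the filter) and by 0.45 over the LAT1 pair (adjusted p = 0.00111). Periplakin (PPL), its partner, averaged 25.9 FPKM with siEZH2-1 and 18.1 with siEZH2-2, against 26.1 with siNC, and 28.6 FPKM with siLAT1-2 and 19.6 with siLAT1-3, against 33.6 with siNC. It fell by 0.26 over the EZH2 pair (adjusted p = 0.00849 in limma, lost without siNC replicate 2) and by 0.49 over the LAT1 pair (adjusted p = 8.46e-05). PKP4 and KAZN were tested and passed in neither mean. Among all tested genes, 17.0% were higher and 13.0% lower over the EZH2 pair, and 19.3% and 15.3% over the LAT1 pair.

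Of keratins and their linkers, 0 of 9 tested rose and 5 fell over the LAT1 pair, with a median of -0.14, where 19.3% of all genes were higher and 15.3% lower. The siRNAs were uneven, with 6 of 9 lower with siLAT1-2 and 2 of 9 with siLAT1-3, where 13.9% and 13.6% of all genes were lower. Over the EZH2 pair 1 of 8 rose and 1 fell, with a median of -0.09, where 17.0% of all genes were higher and 13.0% lower. KRT17 fell by 0.48, KRT14 by 0.45 and KRT6A by 0.31 over the LAT1 pair (adjusted p of 0.000208, 0.00381 and 0.00059 in limma). KRT17 fell with each siRNA, while KRT14 and KRT6A fell with siLAT1-2 by 0.71 and 0.74 and did not pass with siLAT1-3, where their log2 changes were -0.19 and 0.11 (adjusted p of 0.136 and 0.0632 in limma). Plectin (PLEC), which links keratin to other filaments and to hemidesmosomes, fell by 0.43 over the EZH2 pair (adjusted p = 0.00244). These keratins have close paralogs and pseudogenes, and how shared reads were counted is not given in the sources used here, so their values are uncertain.

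Of the adherens junction genes, 1 of 11 tested rose and 5 fell over the EZH2 pair (median -0.22), and 2 of 13 rose and 3 fell over the LAT1 pair (median -0.05). The shares of all genes were 17.0% higher and 13.0% lower over the EZH2 pair, and 19.3% and 15.3% over the LAT1 pair. Vinculin (VCL), which couples the junction to actin, fell by 0.68 over the EZH2 pair and by 0.72 over the LAT1 pair (adjusted p of 0.000395 and 1.29e-05 in limma). The LAT1 siRNAs were uneven, with falls of VCL by 1.15 with siLAT1-2 and by 0.28 with siLAT1-3. Afadin (AFDN), which binds nectins, rose by 0.52 over the LAT1 pair (adjusted p = 6.96e-05 in limma), and p120 catenin (CTNND1) fell by 0.48 there (adjusted p = 3.78e-05). The EZH2 siRNAs moved AFDN in opposite directions. It fell by 0.29 with siEZH2-1 and rose by 0.39 with siEZH2-2 (adjusted p of 0.0372 and 0.0141 in limma). With 1 library left out, these calls were lost in 4 and 2 of 6 refits. Beta-catenin (CTNNB1), the relative of JUP, fell by 0.34 over the EZH2 pair (adjusted p = 0.00363 in limma).

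Of the tight junction genes, 2 of 13 tested rose and 4 fell over the EZH2 pair (median -0.10), and 2 of 14 rose and 7 fell over the LAT1 pair (median -0.13). For these and the gap junction genes below, 17.0% of all genes were higher and 13.0% lower over the EZH2 pair. Over the LAT1 pair the shares were 19.3% and 15.3%. The scaffold TJP1 fell by 0.67 over the EZH2 pair, and the claudin CLDN12 fell by 0.67 (adjusted p of 0.00432 and 0.00295 in limma). TJP1 passed with siEZH2-2 (-1.04) and not with siEZH2-1 (-0.30, adjusted p = 0.0998 in limma), and CLDN12 with siEZH2-1 (-1.10) and not with siEZH2-2 (-0.24, adjusted p = 0.141). Claudin 1 (CLDN1) rose by 0.31 over the LAT1 pair (adjusted p = 0.00413 in limma) and, at 0.015 FPKM or less in each EZH2 series group, was not tested there. Of 5 gap junction genes tested, 0 rose and 3 fell over the EZH2 pair (median -0.29), where connexin 43 (GJA1) fell by 0.56 (adjusted p = 0.00522), and 1 rose and 2 fell over the LAT1 pair (median -0.06).

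Relatives of PERP in the PMP22 family gave values of both signs. EMP1 averaged 35.6 FPKM with siEZH2-1 and 20.3 with siEZH2-2, against 46.8 with siNC, and fell by 0.77 over the EZH2 pair (adjusted p = 0.000395 in limma). It also fell by 0.28 over the LAT1 pair (adjusted p = 0.00517 in limma), a call lost without siNC replicate 2. EMP2 rose by 0.39 over the LAT1 pair (adjusted p = 0.000987 in limma), and in the EZH2 series by 0.43 with siEZH2-1 (adjusted p = 0.00315). With siEZH2-2 it fell by 0.24 (adjusted p = 0.0237 in limma), a call lost without any 1 of the 6 libraries (adjusted p of 0.0514 to 0.116). Of the family, 0 of 3 tested rose and 1 fell over the EZH2 pair, and 1 of 4 rose and 1 fell over the LAT1 pair. All genes gave 17.0% higher and 13.0% lower over the EZH2 pair, and 19.3% and 15.3% over the LAT1 pair.

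Of 10 genes of desmosome assembly and turnover, all tested, 1 rose and 3 fell over the EZH2 pair (median -0.21) and 1 rose and 4 fell over the LAT1 pair (median -0.08). For these and the regulators below, 17.0% of all genes were higher and 13.0% lower over the EZH2 pair. Over the LAT1 pair the shares were 19.3% and 15.3%. ATP2A2, the calcium pump whose loss causes the skin disorder Darier disease, fell by 0.54 over the EZH2 pair and by 0.30 over the LAT1 pair (adjusted p of 0.0025 and 0.000204 in limma). It fell by 0.51 with siLAT1-3 and by 0.09 with siLAT1-2 (adjusted p of 4.66e-05 and 0.0436 in limma). The siLAT1-2 call was lost in 6 of 6 refits that leave 1 library out. Of regulators of junction genes, 1 of 9 tested rose and 3 fell over the EZH2 pair (median -0.11), and 1 of 12 rose and 2 fell over the LAT1 pair (median -0.04). TP63, the regulator of squamous identity, fell by 0.30 over the EZH2 pair (adjusted p = 0.0304 in limma; -0.19 and an adjusted p of 0.167 with siEZH2-2 alone), a call lost without the filter, with the pair as 1 group and without siEZH2-1 replicate 2, siEZH2-2 replicate 1 or either siNC library, with adjusted p up to 0.189. In the LAT1 series TP63 had 35.7 to 37.8 FPKM in the 4 siRNA libraries, against 36.1 and 35.7 FPKM with siNC.

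With each pair as 1 group of 4 libraries, where a gap between the siRNAs counts as spread, the EZH2 calls named above for PPL, CTNNB1, CLDN12, TJP1 and EMP1 were lost, with adjusted p of 0.0671 to 0.364 in limma. The LAT1 calls of PPL, KRT14, KRT6A, VCL and ATP2A2 were lost in the same way, with adjusted p of 0.148 to 0.533.

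**Figure D4:**
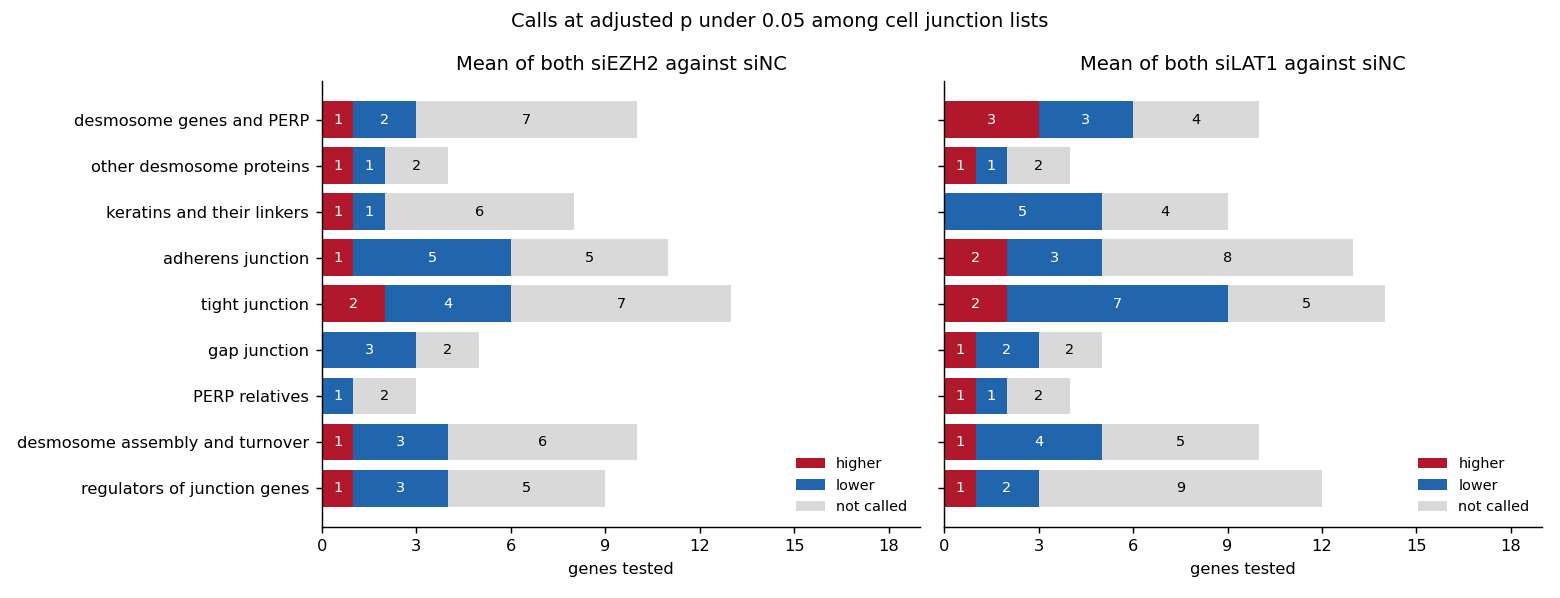
Number of tested genes that were higher, lower or not called at an adjusted p under 0.05 in limma over the siRNA pair against siNC, for the 10 members and for 8 lists of junction genes, with the EZH2 pair on the left and the LAT1 pair on the right. Of the tight junction genes 4 of 13 were lower over the EZH2 pair and 7 of 14 over the LAT1 pair. The shares of all genes that were lower were 13.0% and 15.3%.

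The genes nearest to PERP were ranked by the Euclidean distance between their 4 log2 changes, each siRNA against its own siNC, among 4231 genes that averaged 10 FPKM or more in both tables. They were PRMT6 at a distance of 0.54, TRIB3 at 0.64, RAC1 at 0.69, DROSHA at 0.73 and C9orf78 at 0.73. PRMT6, an arginine methyltransferase, had log2 changes of 1.39 with siEZH2-1, 0.71 with siEZH2-2, 1.10 with siLAT1-2 and 1.08 with siLAT1-3. TRIB3, a pseudokinase, had 0.86, 0.05, 0.84 and 0.97 in the same order. Of the members ranked, the nearest was JUP, at rank 1729, and DSC3 ranked 4158. PKP1, at means of 6.39 to 7.80 FPKM in the LAT1 series groups, was under the minimum of 10 FPKM and was not ranked. The distance joins the 2 series, whose libraries stood apart, and within a series the log2 changes share siNC libraries.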

How the data were processed

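RNA from 12 libraries of KYSE510 cells was sequenced 48 h after transfection, in 2 tables of 6 libraries. The authors deposited values taken here as FPKM per gene, with 1 column per library. This unit was inferred, in part from the values themselves, and the levels, shares and depth estimates rest on it. Per the submitters' processing notes, the tools were Trim Galore, STAR, Bowtie, Bowtie2, SEACR and Picard and the builds hg38 and hg19, with no role given. The counting program, strand setting and gene lengths are not given in the sources used here, nor whether reads or fragments were counted. Columns summed to 245634 to 275399 FPKM. In the LAT1 series both siNC titles carry the same replicate number, and the descriptions, which number them apart, were followed. EZH2 CUT&Tag samples were not analysed here.

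Depth was estimated from genes whose low values rise in steps of 1 read, with 82.5% to 89.2% of such values whole within 0.12 reads (24% by chance at a fixed depth). The depth was searched for, so its own chance share is higher. Each table was fitted alone with limma 3.58.1 in R 4.3.3 (trend, 1 coefficient per group) on log2(FPKM + 1), over the 11585 and 11678 genes that averaged 1 FPKM or more. Each siRNA and the mean of both were set against siNC, and siEZH2-2 against siEZH2-1 and siLAT1-3 against siLAT1-2. Calls were made at a Benjamini-Hochberg adjusted p under 0.05 over all genes of a table, two-sided. With 4 libraries against 2, the smallest exact permutation p is 0.0667, so calls rest on a spread pooled across genes. No label says whether the 2 libraries of a group are separate cultures. The p-values therefore measure the spread between these libraries alone, and it may be technical. The procedure was tested on simulated data whose noise was drawn independently for each gene and library. Such noise lacks the shared replicate direction of the EZH2 series described below, so that test does not cover it.

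The members and gene lists were chosen with earlier results of these data known. Named beside the members were the siRNA targets, up to 5 called genes per list with the largest change in the mean of either series, and the 5 genes nearest to PERP. Not every gene so chosen is reported here. DSC1, DSG1, DSG4, CDSN, PKP4 and KAZN, and CDH2, CLDN1 at siNC and the levels of TP63 in the LAT1 series, were named after their values were seen, as were markers. The alternatives tried were no filter, a filter at 5 FPKM, a pseudocount of 0.1, quantile normalization, replicate number as a block, the pair as 1 group, a minimum absolute log2 change of 0.5 and each library left out. Promoter windows came from RefSeq. Tables and plots were made with Python 3.11.15.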

Additional observations from a re-analysis of the deposited data

Results flagged for a closer look

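The siRNAs against 1 target differed from each other at 5 members for EZH2 and at 4 for LAT1, each by a limma test of the difference itself on log2(FPKM + 1). Of all genes tested, 16.3% differed between the EZH2 siRNAs and 25.5% between the LAT1 siRNAs. In siEZH2-2 minus siEZH2-1, DSC3 differed by 1.15, PKP2 by 0.50, DSP by 0.46 and DSG3 by 0.41, while PERP differed by -1.17. The differences of DSP (adjusted p = 0.0171 in limma), DSG3 (0.0365) and PKP2 (0.00836) were lost without the low-value filter and without siEZH2-1 replicate 2. That of DSP was also lost without siEZH2-2 replicate 2, and that of DSG3 also without either siEZH2-2 library, with adjusted p up to 0.0997 for DSP, 0.179 for DSG3 and 0.057 for PKP2. Those of PERP and DSC3 kept their calls under 5 other settings of the fit and without any 1 of 6 libraries, and both exceed an absolute log2 change of 0.5.

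In siLAT1-3 minus siLAT1-2, DSG2 differed by 0.56, DSC3 by 0.22 and DSG3 by 0.21, while PKP2 differed by -0.58. These calls were kept under the same settings, but DSC3 and DSG3 are under an absolute log2 change of 0.5. For DSG2 and PKP2 the siRNAs lay on opposite sides of siNC. EZH2 with the EZH2 siRNAs averaged 6.94 FPKM for siEZH2-1 and 6.22 FPKM for siEZH2-2, and SLC7A5 with the LAT1 siRNAs 83.3 FPKM for siLAT1-2 and 107 FPKM for siLAT1-3. The part of target level in these differences was not tested.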

How the results depend on the processing

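Of 900 values of members under alternatives, 788 kept their side of the threshold, 95 lost a call and 17 gained one, and none that was called changed sign. Among the other named genes 2764 of 3073 kept it, 283 lost a call and 26 gained one. Members called numbered 3 over the EZH2 pair, 5 with siEZH2-1, 3 with siEZH2-2 and 5 between these siRNAs, and 6 over the LAT1 pair, 6 with siLAT1-2, 5 with siLAT1-3 and 4 between those. Without the filter the counts that moved by over 1.5 times were 3 with siEZH2-1, 1 with siEZH2-2, 2 between the EZH2 siRNAs and 3 over the LAT1 pair. With each pair as 1 group they were 0 over the EZH2 pair in limma (1 member at an unadjusted p under 0.05) and 2 over the LAT1 pair. With a minimum absolute log2 change of 0.5 they were 1, 2, 0 and 2 in the EZH2 comparisons in the order above and 1, 1, 1 and 2 in the LAT1 comparisons. With 1 library left out the counts ran from 1 to 3, 3 to 5, 0 to 2 and 2 to 5 in the EZH2 comparisons and from 3 to 4, 4 to 7, 3 to 5 and 4 to 4 in the LAT1 comparisons. The 0 with siEZH2-2 came without siEZH2-2 replicate 1 or either siNC library in limma, with 3 or 4 members at an unadjusted p under 0.05.

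Across genes, replicate 2 minus replicate 1 correlated at -0.353 between siEZH2-1 and siEZH2-2 and at 0.355 between siEZH2-1 and siNC. The correlation was -0.339 between siEZH2-2 and siNC, and 0.0177 to 0.0826 in the LAT1 series. Replicates of the EZH2 series thus differed in part along a shared direction, which ran the other way in siEZH2-2. Replicate 1 was higher at 8 of 10 members with siEZH2-1, at 3 with siEZH2-2 and at 8 with siNC. In the LAT1 series it was higher at 6 of 10 members with siLAT1-2, at 5 with siLAT1-3 and at 9 with siNC. These member counts therefore do not set the EZH2 series apart, and the share over all genes was not counted. A block by replicate number does not follow the shared direction of the EZH2 series, and what that direction comes from was not tested. With replicate number as a block, members called were 1 over the EZH2 pair, 3 with siEZH2-1 and 1 with siEZH2-2, and the other counts were within 1.5 times. The block ended 8 member calls, those of PKP1 and PKP2 over the EZH2 pair, DSP and DSG3 with siEZH2-1, DSC2 and PKP1 with siEZH2-2, DSG3 between the EZH2 siRNAs and PKP1 over the LAT1 pair, with adjusted p of 0.0512 to 0.0875, and that of TP63 over the EZH2 pair (0.0541). DESeq2 or another count normalization was not run because the tables hold values taken as FPKM and not counts. With 2 libraries per group, the calls near the threshold rested on single libraries, as given beside each.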
